A study of Mus musculus with 12 samples.

Results

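The 8 genes described here encode phosphodiesterases, the enzymes that break down the cyclic nucleotides cAMP and cGMP, and are grouped as a striatal set: Pde1b, Pde2a, Pde4a, Pde4b, Pde4c, Pde4d, Pde7b and Pde10a. They were found by gene name in the set of gene models deposited with the study, which gave 8 of 35912 named genes and 67 of the 87740 transcripts in all, and 50 of the 67 carried a protein identifier. The study sequenced polyA RNA of the nucleus accumbens (NAc), the ventral part of the striatum, from C57BL/6 mice, for which the labels give 8 to 10 weeks under a tag named passages. Mice given repeated cocaine received 7 daily intraperitoneal doses of 20 mg/kg, and their controls received saline for 7 days. Mice given acute cocaine received saline for 6 days and 1 cocaine dose of 20 mg/kg, and their controls received saline for 7 days. All tissue was taken 24 h after the last injection, and each of the 4 groups had 3 pools of 3 to 5 animals by the labels, 12 samples in all. The methods of the study give the upper end of this pool size and the lower end of this age. The deposited models hold exons and identifiers and no expression value of any pool. The comparisons of repeated cocaine with repeated saline and of acute cocaine with acute saline were therefore not made for these genes, and depth per pool could not be read from the models. For the same reason the word striatal could not be checked against expression.

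Cyclic nucleotides carry the signal of dopamine and other transmitters inside striatal neurons, and phosphodiesterases set how long and where that signal lasts. Pde1b encodes an enzyme switched on by calcium and calmodulin that degrades cAMP and cGMP, Pde2a an enzyme that also degrades both and is stimulated by cGMP, and Pde10a an enzyme with activity on both that is best known from medium spiny neurons of the striatum. Pde7b and the Pde4 genes encode enzymes specific for cAMP, and the Pde4 enzymes are the targets of rolipram. Pde4 proteins are made in long forms, which carry a pair of upstream conserved regions ahead of the catalytic domain, and in short forms that lack the first of them. The alternative amino termini are known to direct Pde4 enzymes to different places in the cell.

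Among the gene models of these 8 genes, Pde4d stood at one end and Pde1b at the other, level with Pde7b in first exons. Pde4d had 20 transcripts, of which 13 were coding (had a protein identifier), 16 start groups and 14 alternative first exons. A start group is a set of transcripts that the file places at a shared transcriptional start site. Overlapping first exons were counted once. Pde10a followed with 11 transcripts, 8 start groups and 8 first exons, and Pde4b with 9 transcripts, 8 start groups and 7 first exons. Pde2a had 6 transcripts, 4 start groups and 4 first exons. Pde4c had 6 transcripts, 5 start groups and 5 first exons, and Pde4a had 5 transcripts, 4 start groups and 4 first exons. Pde7b had 7 transcripts and 4 start groups but 2 first exons, and Pde1b had 3 transcripts, 3 start groups and 2 first exons. Over the 8 genes this came to 52 start groups and 46 first exons, and 38 of the 46 first exons led to a coding transcript. GENCODE M1, an annotation of the same build, marks the start as not found for 3 coding transcripts. These are the coding transcripts of Pde4d first exons 4, 7 and 14, so the counts for Pde4d include starts that may not be true ones.

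**Figure D1:**
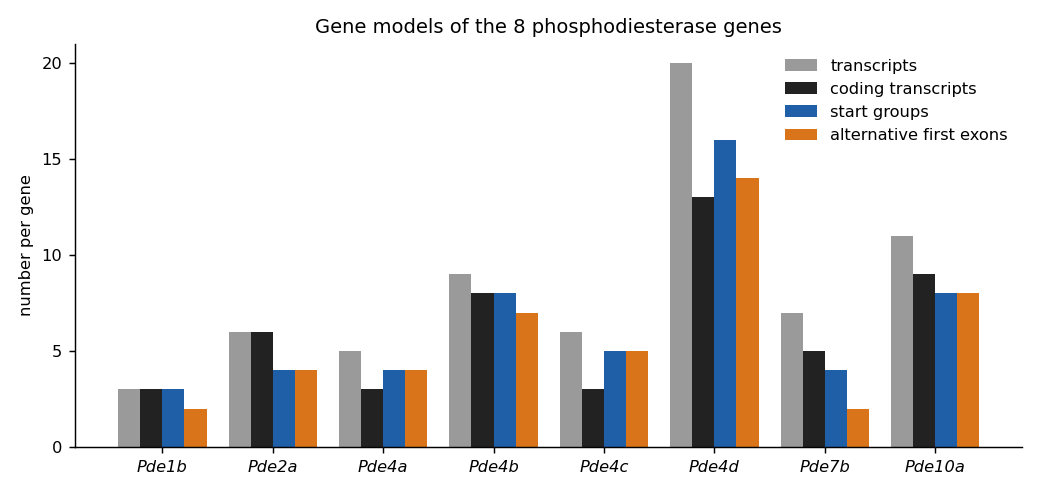
Number of transcripts (grey), coding transcripts (black), start groups (blue) and alternative first exons (orange) in the deposited gene models, for each of the 8 genes on the horizontal axis. Pde4d has the tallest bars, with 20 transcripts and 16 start groups, and Pde1b the fewest transcripts, with 3.

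Set beside the 22497 genes with a coding transcript that could be ranked, the 8 genes had many start groups. Only 7 ranked genes (0.0311%), Pde4d among them, had 16 or more start groups. For Pde4b and Pde10a, 523 genes (2.32%) had 8 or more. The share was 10.5% for Pde4c, 16.8% for Pde2a, Pde4a and Pde7b, and 26.4% for Pde1b. The median was 4.5 start groups over the 8 genes and 1 over all ranked genes. The other 13 catalytic phosphodiesterase genes of the file had 79 transcripts and a median of 3 start groups, from 1 in Pde6c, a cone photoreceptor enzyme, to 9 in Pde8b, a cAMP-specific enzyme. These ranks are descriptions of an annotation and carry no test.

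The genes also differed in size. Pde4d spanned 1506030 bases of chromosome 13 (chr13:109240142-110746171, mm9, forward strand), and 13 ranked genes (0.0578%) spanned as much or more. Its longest intron, of 707703 bases, was matched or passed by 11 ranked genes, itself included. Pde4b covered 519.7 kb (chr4:101760148-102279864), Pde10a 461.3 kb (chr17:8718237-9179513) and Pde7b 327.1 kb on the reverse strand (chr10:20117810-20444884). The remaining 4 genes were more compact. Pde2a covered 91.1 kb (chr7:108570212-108661340), Pde4a 47.5 kb (chr9:20970158-21017692), Pde4c 27.5 kb (chr8:73247619-73275085) and Pde1b 27.0 kb (chr15:103333465-103360483). The median span of ranked genes was 15000 bases, below that of each of the 8 genes. All coordinates are mm9 (NCBIM37) and 1-based.

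**Figure D2:**
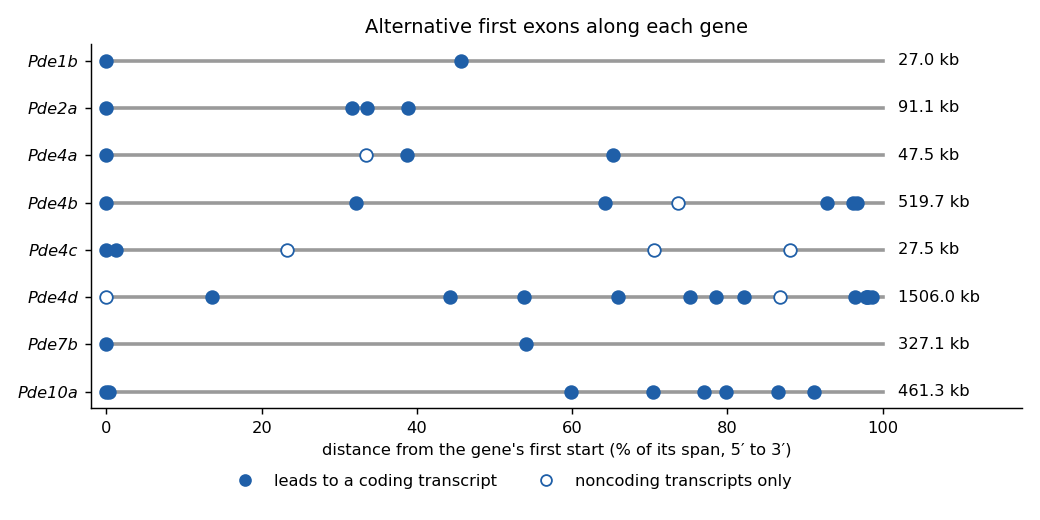
Position of each alternative first exon as a share of its gene's span, in percent from the first start (left) to the 3′ end (right), with the span in kb at the right. Filled circles lead to at least 1 coding transcript and open circles to noncoding transcripts only; 38 of the 46 are filled, and the first exons of Pde4d reach from the first start to 1485.4 kb.

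To tell long from short forms in the same way in every gene, the 5′-most internal exon that 2 or more start groups share was used as a landmark. A coding transcript that holds this exon after its first exon was called long, and one that starts 3′ of it was called short. By this rule the 8 genes had 26 long forms, 22 short forms and 1 coding transcript of Pde10a that was neither, since it starts upstream and skips the exon. A single-exon coding transcript at the 3′ end of Pde4d was not placed. Pde4d had 7 long and 5 short forms, Pde4b 4 and 4, Pde4a 2 and 1, and Pde4c 3 and 0. The landmark of Pde4c was a 53-base exon near its 5′ end (chr8:73248414-73248466). Outside the Pde4 genes the counts of long and short forms were 2 and 1 for Pde1b, 4 and 2 for Pde2a, 2 and 3 for Pde7b, and 2 and 6 for Pde10a.

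The long forms of Pde4d converged on 1 exon. First exons 3 to 8, which lay between 666.3 and 1236.2 kb from the first start, were each joined in a coding transcript to the same 192-base exon (chr13:110530595-110530786), across first introns of 54.2 kb for first exon 8 to 623.3 kb for first exon 3. First exon 2, at 204.2 kb, reached the same exon through 2 further exons. The ends of first exons 3 to 8 and the start of the shared exon are given here, since the alternative amino termini of the long forms are made at these junctions. Capitals mark exon bases and lower case intron bases.
Pde4d first exon 3, end (chr13:109907260-109907289): CCAGGGACTCAGACGgtgagtagagagcgc
Pde4d first exon 4, end (chr13:110051125-110051154): AGTGGCACATACATGgtaaggtctgcaccg
Pde4d first exon 5, end (chr13:110232533-110232562): GCATTCCTGGATATGgtaagtaatcaatac
Pde4d first exon 6, end (chr13:110371892-110371921): GCCACAGAGGAGACGgtaattgcttccctt
Pde4d first exon 7, end (chr13:110423092-110423121): CTCAAAGTCCTACAGgtatggcaatttcct
Pde4d first exon 8, end (chr13:110476418-110476447): AACGGAGGCAGTTTGgtaaagtgctacttt
Pde4d shared exon, start (chr13:110530580-110530609): ttcctctattctcagTTTCGATGTGGACAA
All 6 introns open with gt after their own exon, and the shared acceptor closes with ag.

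The reading frames fitted these joints. In GENCODE M1, each of the 13 long forms of Pde4a, Pde4b and Pde4d left 2 bases over full codons at the shared exon. This was counted from the annotated frame of each form. First exon 4 of Pde4d brought 292 coding bases, which left 2 over only once bases before its first full codon were dropped. The starts of first exons 4 and 7 of Pde4d were not found, so their remainder follows from an assigned frame and is no check of the joint. For Pde4d forms with a start codon found in the first exon, first exon 3 brought 440 coding bases, first exon 5 brought 140, first exon 6 brought 125 and first exon 8 brought 65. Pde4a long forms brought 305 and 134 coding bases. Of the 10 short forms of these genes, 8 left 0 bases over, 1 left 2 and 1 had its start codon further downstream. These were counted to the first exon each form shares with coding transcripts of other first exons. That exon was not the same in all short forms, nor the one used for the long forms, so the remainders are not like for like. The form from Pde4d first exon 14, whose start was not found, was again counted from an assigned frame. The short form with 2 left over was a Pde4d transcript from first exon 10, counted to a 113-base exon (chr13:110693785-110693897). GENCODE types it as a target of nonsense-mediated decay, the pathway that removes mRNAs with an early stop codon, and its frame closed after 48 codons.

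**Figure D3:**
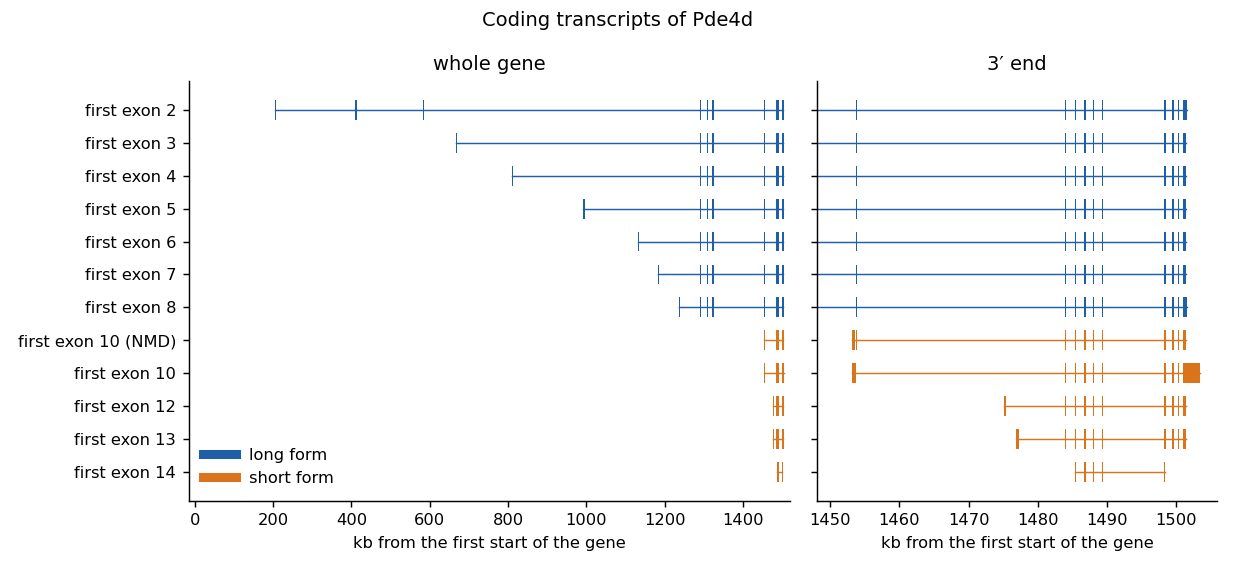
The 12 coding transcripts of Pde4d with more than 1 exon, drawn to scale in kb from the first start of the gene, long forms in blue and short forms in orange, for the whole gene (left) and its 3′ end (right). Boxes are exons (narrow ones widened so that they can be seen) and lines introns; the long forms start between 204.2 and 1236.2 kb and the short forms from 1453.2 kb onwards.

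The short forms of Pde4d began in the last part of the gene. First exons 10, 12, 13 and 14 lay at 1453.2, 1475.1, 1476.9 and 1485.4 kb. First exons 12 and 13 were spliced to a 94-base exon (chr13:110724076-110724169), and one transcript from first exon 10 also reached it directly. The same held in Pde4b, where first exons 5, 6 and 7, between 482.6 and 502.3 kb, were all joined to a 94-base exon (chr4:102263436-102263529), and in Pde4a, where first exon 4, at 31.0 kb, was joined to a 94-base exon (chr9:21003037-21003130). Pde4c had an exon of the same size (chr8:73270686-73270779) and no coding short form. These 4 exons are shown side by side because each short form of Pde4a, Pde4b and Pde4d that is typed as protein coding and complete holds this exon. Capitals mark the 61 of 94 bases that were the same in all 4 genes.
Pde4a exon 6 of the series (chr9:21003037-21003130): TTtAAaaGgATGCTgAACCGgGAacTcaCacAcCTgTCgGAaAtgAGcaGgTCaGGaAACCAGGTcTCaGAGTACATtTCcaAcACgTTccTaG
Pde4b exon 6 of the series (chr4:102263436-102263529): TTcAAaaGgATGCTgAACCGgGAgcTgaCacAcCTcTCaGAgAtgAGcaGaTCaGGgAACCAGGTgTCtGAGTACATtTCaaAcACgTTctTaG
Pde4c exon 6 of the series (chr8:73270686-73270779): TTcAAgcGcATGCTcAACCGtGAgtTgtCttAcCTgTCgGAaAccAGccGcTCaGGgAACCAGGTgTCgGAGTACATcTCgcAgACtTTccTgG
Pde4d exon 6 of the series (chr13:110724076-110724169): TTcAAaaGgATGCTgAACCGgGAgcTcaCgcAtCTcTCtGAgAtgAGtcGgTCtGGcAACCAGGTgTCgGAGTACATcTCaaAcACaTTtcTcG

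Sizes of the exons that follow were held in common too. Counted back from the last exon, 13 internal exons could be laid side by side in the longest coding transcripts of Pde4a, Pde4b, Pde4c and Pde4d, and 9 of the 13 had the same length in all 4 genes. The exon at which the long forms converge in Pde4a, Pde4b and Pde4d is exon 1 of this series, of 192 bases in Pde4a, Pde4c and Pde4d and 195 bases in Pde4b. Exon 2 had 37 bases in each gene, exon 5 had 113, exon 8 had 99, exon 9 had 165, exon 10 had 100, exon 11 had 155, exon 12 had 123 and exon 13 had 183. Exon 3 had 74 bases in Pde4d and 71 in the others, and exon 4 had 53 bases in Pde4c and 50 in the others. Exon 7 differed in every gene, with 197 bases in Pde4a, 179 in Pde4b, 161 in Pde4c and 173 in Pde4d. Each of these differences between genes is a multiple of 3 bases, a whole number of codons.

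The bases were alike as well. Over exons of equal length, identity ran from 71.6% between Pde4b and Pde4c to 76.7% both between Pde4a and Pde4b and between Pde4b and Pde4d, over 1119 to 1332 bases a pair. The exons counted differed between pairs, so these values do not rank the pairs on equal terms. Exon 1, for example, was 56.8% to 60.9% identical and entered only the pairs without Pde4b. In the introns, 50 bases after each exon (leaving out the 6 next to the splice site) were compared place by place. Of these, 21.8% to 26.5% were identical over 650 bases a pair. The introns were not aligned or matched by length. Inserted or lost bases therefore lower their share, and exon and intron values are not like for like. Exon 12 had the highest share of bases that were the same in all 4 genes, 71.5%, and exon 8 the lowest, 42.4%. The short exon 2 was close to the top, with 26 of 37 bases the same in all 4, and is shown as an example with these bases in capitals.
Pde4a exon 2 of the series (chr9:20996839-20996875): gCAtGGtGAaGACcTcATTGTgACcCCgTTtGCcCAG
Pde4b exon 2 of the series (chr4:102170227-102170263): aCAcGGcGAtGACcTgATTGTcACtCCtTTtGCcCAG
Pde4c exon 2 of the series (chr8:73269766-73269802): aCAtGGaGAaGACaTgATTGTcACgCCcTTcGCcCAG
Pde4d exon 2 of the series (chr13:110547785-110547821): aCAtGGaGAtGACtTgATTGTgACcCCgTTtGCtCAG
Of the 11 places in lower case, 10 were the last base of a codon in the Pde4a frame. Over the 9 exons of equal length, 277 of 406 differing bases (68.2%) stood at the last place of a codon.

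**Figure D4:**
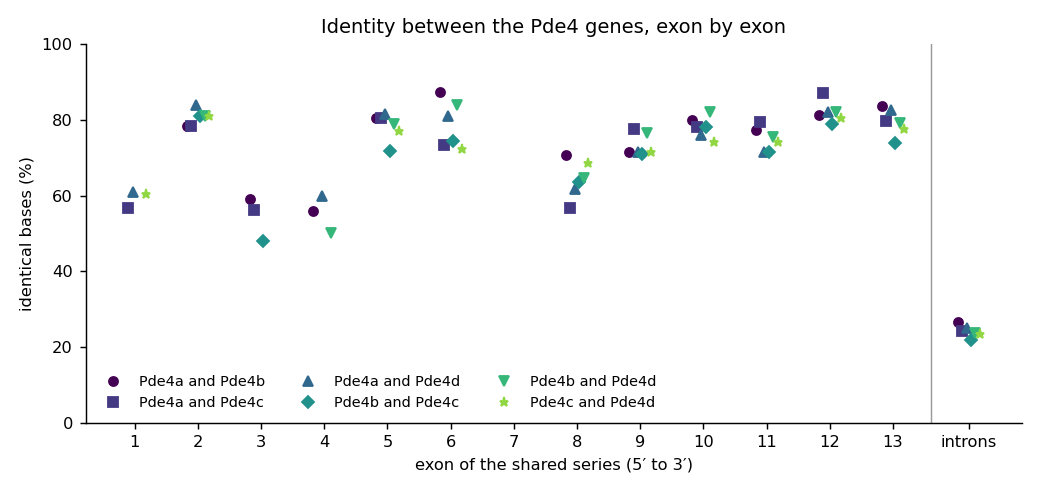
Identical bases, in percent, between each pair of Pde4 genes (1 symbol a pair) for exons 1 to 13 of the shared series, where the pair has exons of equal length, and for the intron bases after these exons (right). Exon values lie between 47.9% and 87.2% and intron values between 21.8% and 26.5%.

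The alternative first exons themselves were then compared between the Pde4 genes, over the last 45 bases before the splice site. Of 31 first exon ends, 4 that lie inside the shared series were left out, and the remaining 27 gave 246 pairs between genes. The median pair had 12 identical bases of 45, and 2 pairs stood well above it. First exon 7 of Pde4b and first exon 13 of Pde4d, both starts of short forms with 48 coding bases, had 38 identical bases (84.4%). First exon 2 of Pde4b and first exon 4 of Pde4d, both starts of long forms, had 34 (75.6%). Next came first exon 3 of Pde4b and first exon 5 of Pde4d with 23 (51.1%), and no other pair had more than 19. Capitals in these 3 pairs mark bases that are identical within the pair.
Pde4b first exon 7, last 45 bases (chr4:102262762-102262806): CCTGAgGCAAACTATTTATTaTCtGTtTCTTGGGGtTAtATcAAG
Pde4d first exon 13, last 45 bases (chr13:110717436-110717480): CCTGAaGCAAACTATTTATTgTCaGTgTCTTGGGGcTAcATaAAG
Pde4b first exon 2, last 45 bases (chr4:101928017-101928061): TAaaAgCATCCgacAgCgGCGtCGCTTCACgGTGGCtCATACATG
Pde4d first exon 4, last 45 bases (chr13:110051095-110051139): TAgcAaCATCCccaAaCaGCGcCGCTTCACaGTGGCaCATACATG
Pde4b first exon 3, last 45 bases (chr4:102094381-102094425): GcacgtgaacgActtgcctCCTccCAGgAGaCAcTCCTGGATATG
Pde4d first exon 5, last 45 bases (chr13:110232503-110232547): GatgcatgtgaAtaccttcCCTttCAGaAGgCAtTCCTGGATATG
In the pair of short-form starts the matches ran along the whole stretch. In the last pair, 21 of the 23 identical bases lay in the 26 bases next to the splice site.

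Pde4c joined this pattern only when the ends were allowed to slide against each other by up to 15 bases. First exon 4 of Pde4c then matched first exon 2 of Pde4b at 32 of 42 bases with an offset of 3 bases, and first exon 4 of Pde4d at 30 of 42. The median pair had 16 identical bases under this rule. This first exon of Pde4c led to 1 transcript, which carried no protein identifier and which GENCODE types as a retained intron.
Pde4b first exon 2, 42 bases compared (chr4:101928020-101928061): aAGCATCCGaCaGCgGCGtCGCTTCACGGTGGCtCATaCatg
Pde4c first exon 4, 42 bases compared (chr8:73267104-73267145): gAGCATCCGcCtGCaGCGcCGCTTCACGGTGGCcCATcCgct

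Frame lengths differed between the starts. The long forms of Pde4d with a complete frame encoded 678 to 803 codons and the short forms with a complete frame and typed as protein coding 504 to 584. In all, 10 of its 13 coding transcripts ended at the same base (chr13, 110741549). The exceptions were the transcript typed for decay, a fragment that starts at first exon 14 and the single-exon transcript at the 3′ end, which has 62 codons, no start group and a locus identifier of its own. Pde4b long forms had 659, 721 and 736 codons, beside 1 early-ending long form of 212 codons, and its short forms had 402 to 564. The deposited exons of the 212-codon form and of a short form of 503 codons differed from those in GENCODE, which gave the codons. Pde4a long forms had 787 and 844 codons and its short form 610. Pde4c had long forms of 652 and 686 codons, which differ by an alternative acceptor inside exon 13 of the series, and a fragment whose 3′ end was not found.

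**Figure D5:**
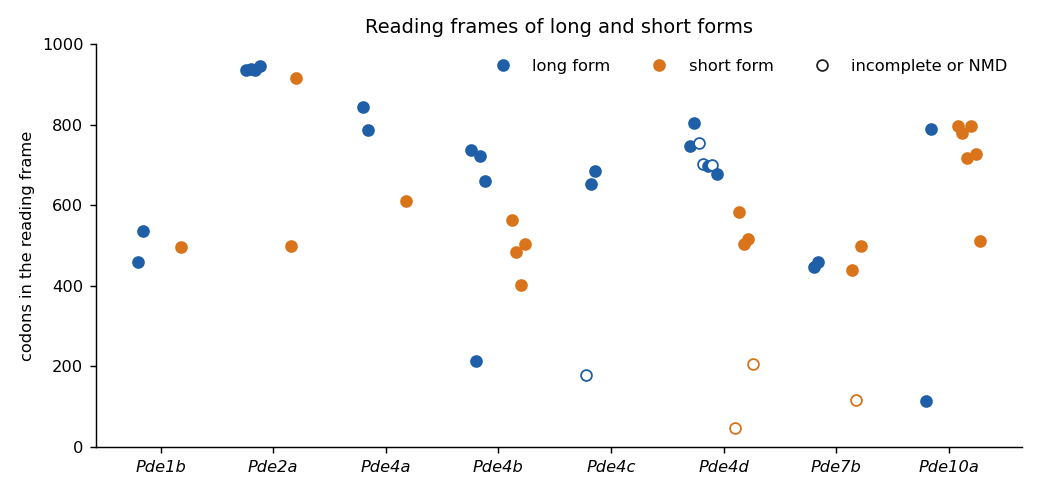
Codons in the GENCODE reading frame of each long (blue) and short (orange) coding transcript, by gene. Open circles are transcripts whose start or end was not found or that are typed for nonsense-mediated decay (NMD); in Pde4a and Pde4d every filled long form lies above every filled short form, while in Pde10a the forms overlap.

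In Pde10a it was coding short forms, by the landmark used here, that converged on 1 exon. Its first exons 1 and 2 lay 1.43 kb apart at the 5′ end, and 274.9 kb separated them from first exon 3. First exons 3, 4, 5 and 6 followed at 276.3, 324.6, 355.1 and 368.0 kb and were each joined to a 129-base exon (chr17:9091726-9091854), which 7 of the 9 coding transcripts held. First exons 7 and 8 lay further 3′, at 398.8 and 420.2 kb. The ends of first exons 3 to 6 and the start of the 129-base exon are shown with exon bases in capitals.
Pde10a first exon 3, end (chr17:8994996-8995025): GTTTCCTCAGCCCCAgtaagtggcccggcc
Pde10a first exon 4, end (chr17:9043095-9043124): TGGAAAAATTATATGgtgaggaagctgctc
Pde10a first exon 5, end (chr17:9073330-9073359): GCTGAACAGGCAGAGgtaggtactcaggtg
Pde10a first exon 6, end (chr17:9086300-9086329): CTGCTACCACACAAGgtaagagttgctcac
Pde10a shared exon, start (chr17:9091711-9091740): ccggttctcttgcagGTTTGACGGATGAAA
First exons 3, 4 and 6 brought 67, 16 and 70 coding bases to this exon, each 1 base over full codons. Their frames ran to 796, 779 and 797 codons. The transcript from first exon 5 had its start codon in exon 4 of the transcript and 716 codons, the same number as the transcript from first exon 1 that skips the landmark exon.

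Long and short frames overlapped in Pde10a, by 1 long form. The long form from first exon 2 had 790 codons, within the range of the short forms, which had 512 to 797. Its first intron, of 229845 bases, opens with TA and not GT. The other long form closed after 113 codons in a last exon of its own. The 3′ ends varied more: 8 of the 9 coding transcripts shared their coding end, while their last exons had between 139 and 5116 bases, a ratio of 36.8. A 50-base exon (chr17:9123375-9123424) was present in 7 coding transcripts and skipped in 1 transcript that is typed for nonsense-mediated decay and has no protein identifier. A 123-base exon (chr17:8951010-8951132), a whole number of codons, was present in 1 coding transcript and skipped in 2.

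Pde7b, on the reverse strand, had 2 first exons 176.6 kb apart, the upstream one in 2 long forms and the downstream one in 3 short forms. The long forms had 446 and 459 codons and differed by a 39-base cassette exon (chr10:20330373-20330411), 13 codons. A 70-base cassette exon (chr10:20173728-20173797), which does not hold a whole number of codons, was present in 1 of 5 coding transcripts. That transcript is typed for nonsense-mediated decay and has 116 codons. The other short forms had 440 and 498 codons. The form of 498 codons closed at the same base as both long forms (chr10, 20120227) and had the longer frame. It brought 238 coding bases ahead of the first shared exon, against 82 and 121 in the long forms. The form of 440 codons closed elsewhere. Short here therefore describes the start site and not the length of the frame.

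Pde2a and Pde1b had 1 last exon each when overlapping last exons were counted once. Told apart by splice acceptor, Pde2a had 2, and its last exons had 88 to 1371 bases. In Pde2a all 6 coding transcripts closed at the same base (chr7, 108660174). Its long forms had 935 to 945 codons, and 2 transcripts from first exon 1 differed by 12 bases at an alternative acceptor, 935 against 939 codons. Of its short forms, one, from first exon 4, had 916 codons and the other, from first exon 3, had 499. First exon 4 of Pde2a was only 10 bases long. In Pde1b, the long forms from first exon 1 had 535 codons and, where 2 introns of 452 and 546 bases were kept, 458 codons. Its short form, from first exon 2, 12.3 kb downstream, had 495 codons.

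Splicing differences other than the starts were counted as well. The 8 genes had 8 cassette exons, 4 of them in Pde4d, 2 in Pde7b and 2 in Pde10a. None of the 4 cassette exons of Pde4d, of 28, 91, 100 and 194 bases, was in a coding transcript. Those of 100 and 194 bases overlap, and their differing ends also count among the alternative acceptors and donors. The genes had 15 retained introns, 9 of them in Pde4c, 4 pairs of alternative acceptors, 2 pairs of alternative donors and 25 alternative last exons. Of the 17 transcripts without a protein identifier, GENCODE types 11 as retained intron, 5 as processed transcript and 1 as a target of nonsense-mediated decay. Of the 202 distinct introns of the 8 genes, 198 opened with GT and closed with AG. The other 4 were in Pde2a, with 3, and Pde10a, with the first intron of the transcript from first exon 2. In Pde2a they included the intron after the 10-base first exon 4 and one in the short form of 499 codons.

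The bases around the start sites were searched for motifs known from genes that respond to cAMP, since phosphodiesterases act on this signal. The window ran from 250 bases before to 50 after the start. The motifs were TGACGTCA, the full cAMP response element, and its core CGTCA on both strands (each full element also counts as a core). The last motif was TATAAA, the TATA box, read in the direction of transcription only. The full element was found at 1 of 52 start groups (1.92%) of the 8 genes and at 1.48% of all 50435 start groups with a complete window. The core was found at 8 (15.4%) and at 19.9% of all, and TATAAA at 3 (5.77%) and at 6.95% of all. The 8 genes were thus near the background for all 3. A match is a run of letters and not a measured binding site.

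The start group with the full element was the upstream one of Pde7b, where it began 106 bases before the start. This sequence was chosen after the matches were seen. The 150 bases before the start (chr10:20444885-20445034, reverse strand) are shown with the element in capitals.
Pde7b first exon 1, upstream: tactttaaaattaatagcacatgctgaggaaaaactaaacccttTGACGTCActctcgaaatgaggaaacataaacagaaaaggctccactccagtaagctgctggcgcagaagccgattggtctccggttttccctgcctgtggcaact
Among the Pde4 genes, 5 start groups had a core element, 1 in Pde4a, 1 in Pde4b and 3 in Pde4d. In Pde4d these were the starts of first exon 4 (a long form, 231 and 194 bases before the start), first exon 9 (noncoding) and first exon 12 (a short form, 15 bases before the start). The start of first exon 4 is marked as not found in GENCODE, so its distances are from an uncertain 5′ end. In Pde4a the core element lay 50 bases before first exon 3, a long form. In Pde10a the start of first exon 1 had a core element 235 bases upstream.

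Base composition set some starts apart from others. Of the 52 start groups, 8 (15.4%) were rich in CpG, taken as over 50% G and C and a ratio of observed to expected CpG above 0.6, against 31.1% of all start groups. The 8 were both start groups of first exon 1 of Pde1b, 2 of Pde4a, 2 of Pde4d and 2 of Pde10a. Among start groups with a coding transcript, the share was 16.7% (7 of 42) in these genes and 40.8% in all. In Pde4d, the start of first exon 10, the 5′-most start of a short form, had 73% G and C, 44 CpG in 300 bases and a ratio of 1.14. The start of first exon 12, of another short form, had 45.7% G and C, 9 CpG and a ratio of 0.626. The 100 bases before each are set side by side to show this difference, with first exon 10 at chr13:110693210-110693309 and first exon 12 at chr13:110715171-110715270, both on the forward strand. Capitals mark the core element.
Pde4d first exon 10, upstream: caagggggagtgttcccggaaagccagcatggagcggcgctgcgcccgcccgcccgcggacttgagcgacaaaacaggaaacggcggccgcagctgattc
Pde4d first exon 12, upstream: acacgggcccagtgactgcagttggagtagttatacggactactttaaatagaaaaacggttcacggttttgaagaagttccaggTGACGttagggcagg

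Other genes lay inside 4 of the 8. Pde2a held Mir139, a microRNA gene on the same strand. Pde4d held the microRNA genes Mir582 and Mir1904 and the genes Gm9000 and Gm10737, all on the same strand. The start of Mir1904 was 703 bases 3′ of the nearest Pde4d start, that of first exon 10. Pde7b held Gm10246, RP23-269H11.2 and RP23-86P1.1, of which the last was on the opposite strand. Pde10a held Gm15425, Gm15426 and RP23-376B1.4, all on the opposite strand. None of these 11 genes overlapped an exon of its host.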

How the data were processed

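Gene models were taken from the file the authors deposited, in which exon starts and ends are positions on mm9 (NCBIM37) and no column holds expression values; the number of columns of per-sample values is 0. CASAVA, TopHat, Cufflinks and Cuffdiff are listed in the submitters' notes, without versions, and the study names Ensembl release 62 as its gene database. The models describe an annotation, so they do not show which forms the pools expressed. The members, gene lists and motifs were chosen with earlier results of these data known, and the comparisons of first exon ends, Pde4 exons and CpG content were chosen after the models had been seen. All 8 members are named, and 13 other phosphodiesterase genes serve as a list beside them. Coding frames and transcript types came from GENCODE M1 (Ensembl 65, NCBIM37), matched by transcript identifier: 65 of 67 transcripts had the same exons. Nested genes were found in the deposited models. All 22 chromosomes of the models were found in the NCBIM37 genome, from which sequences were read. The ranking left out 10 genes named on several chromosomes or strands. Python 3.11.15, numpy 2.4.6 and matplotlib 3.10.9 were used, and counts of starts, exons, forms and motifs were tested on simulated data. Groups were not tested against each other, because the models hold no value of any pool.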

Additional observations from a re-analysis of the deposited data

How the results depend on the processing

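No paired analysis was possible because the gene models hold no values per pool, and for the same reason no replicate could be left out and the comparison of cocaine with saline gave no value to vary. Totals over the 8 genes for transcripts, start sites, first exons, last exons, coding transcripts and long and short forms stayed within 1.5 times of the reported values under each alternative, with start sites between 42 (coding transcripts only) and 64 (each distinct 5′ end). Cassette exons numbered 3 instead of 8 when only coding transcripts were counted, since fewer transcripts were compared. The median share of genes with at least as many start sites as a member was 23.9% among the 12820 genes with 2 or more transcripts, against 13.7% among all ranked genes, since genes with 1 transcript were then left out. With 500 bases before the start, a longer window, the full cAMP response element matched at 2 start groups instead of 1, its core at 14 instead of 8 and TATAAA at 5 instead of 3, while all start groups gave 1.87%, 28.6% and 13.7%. Single genes moved more: with the exon held by 50% or more of the coding transcripts as landmark, Pde7b had 5 long and 0 short forms and Pde10a 7 and 2, so long and short in these 2 genes depend on the landmark. With all transcripts of more than 1 exon, Pde4c had 3 short forms instead of 0. Its first exons 3 and 4, short by this count, are joined to exon 1 of the shared series, where other Pde4 long forms converge. The Pde4c landmark lies 5′ of that exon. With coding transcripts only, Pde4c had 2 start sites and 2 first exons instead of 5 and 5, and cassette exons numbered 0 in Pde4d instead of 4 and 1 in Pde10a instead of 2. Merging 5′ ends within 500 bases gave Pde7b 2 start sites instead of 4, and telling last exons apart by acceptor gave Pde2a 2 instead of 1. Among genes with 2 or more transcripts, the share with at least as many start sites was higher for each of the 8 genes, at 0.0546% for Pde4d, the lowest, and 46.3% for Pde1b, the highest. The type protein_coding in GENCODE, an alternative chosen after seeing the data, gave 48 coding transcripts. The file's own biotype marked all 67 transcripts as protein coding, which gave 20 in Pde4d instead of 13, 6 in Pde4c instead of 3 and 5 in Pde4a instead of 3. Start sites come from annotation, and the spread of 5′ ends within a start group reached 269 bases, which limits how closely a window is placed.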
